A study of Rattus norvegicus with 8 samples.

Results

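Long-chain acyl-CoA synthetases are the enzymes that join a free long-chain fatty acid to coenzyme A, the step without which the fatty acid cannot be oxidised, stored or built into a membrane lipid. The family was taken as the features of the deposited count table named Acsl1, Acsl3, Acsl4, Acsl5 and Acsl6, which gave 5 genes of 32258 features. It was followed in H9C2 cells, a line of cardiomyoblasts derived from embryonic rat heart, after 2 days of transduction with a pDC316 vector. All groups received the vector with YFP. In S280D cells YFP was joined to a PPARα in which aspartate replaces the serine named in the construct, which mimics phosphorylation. In S280A cells it was joined to a PPARα with alanine at that serine, which cannot be phosphorylated. WT cells received YFP joined to wild-type PPARα, and YFP cells received YFP with no receptor. Each group held 2 libraries of poly(A) RNA, 8 in all. H9C2 is 1 cell line. Nothing in the labels ties the 2 libraries of a construct to different cultures, so each p-value reflects the spread of these libraries alone, and that spread may be technical.

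PPARα is a nuclear receptor that binds DNA together with RXR and switches on genes of fatty acid use. Acsl1 is the main synthetase of adult heart, adipose tissue and liver and a known PPAR target in liver. Acsl3 sits on the endoplasmic reticulum and on lipid droplets and takes part in droplet growth. Acsl4 prefers arachidonic acid and other polyunsaturated fatty acids, and is known for loading them into phospholipids that can be peroxidised in ferroptosis. Acsl5 is found at mitochondria and the endoplasmic reticulum and is best known from intestine and liver. Acsl6 is mostly a gene of the nervous system.

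The libraries held 14018785 to 39526013 exon reads. Levels are given in CPM, the usual read counts scaled to library size, here after TMM scaling, and differences as log2 fold changes ± SE with a Benjamini-Hochberg adjusted p from edgeR's quasi-likelihood test, called at 0.05. Ppara, the transduced gene, had 17911 and 17693 CPM of exon reads in S280D cells, 17400 and 13736 CPM in S280A cells, 12382 and 24134 CPM in WT cells, and 74.4 and 59.5 CPM in YFP cells, so the receptor libraries stood apart from the YFP libraries as labelled. Its level did not separate the receptor constructs from one another. Of 14 markers of heart and skeletal muscle 6 had at least 1 CPM in every library, and the other 8 fell short of it in at least 1 library. The summed level stayed at or below 1.89 CPM in every library for the endothelial list, 1.61 CPM for the leukocyte list, 2.96 CPM for the hepatocyte list and 0.293 CPM for the adipocyte list, and Ptprc and Ttr had no read. Fibroblast markers, collagens above all, summed to 38591 to 65546 CPM, with no read of Tcf21.

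The 5 genes lie on 5 chromosomes, in the coordinates of the deposited table and the Rnor_6.0 build. Acsl1 spans 48937455 to 49003246 of chromosome 16 with 23 exons and 4016 bases of exon, and Acsl3 spans 84569596 to 84593565 of chromosome 9 with 14 exons and 2772 bases. Acsl4 spans 113596238 to 113659944 of chromosome X with 16 exons and 4951 bases, and Acsl5 spans 276240702 to 276290008 of chromosome 1 with 24 exons and 2453 bases. Acsl6 spans 39655454 to 39719312 of chromosome 10 with 24 exons and 6091 bases. No other feature of the table overlaps any of them. Their exon reads were mapped uniquely, apart from 8 of the 66339 reads of Acsl5.

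The start regions of the family members fall into unlike kinds of sequence. RefSeq windows of 300 bases, running from 250 bases before to 50 bases after the annotated start, were found for all 5 genes in the GRCr8 build. Those of Acsl4 and Acsl3, the genes that differed between constructs, are shown first, and those of Acsl1 and Acsl5, which did not pass the test in any comparison, follow. Capitals mark each CG pair. The windows are chrX:110803212-110803511 on the minus strand for Acsl4, chr9:87563351-87563650 on the plus strand for Acsl3, chr16:52532343-52532642 on the minus strand for Acsl1, and chr1:264294601-264294900 on the plus strand for Acsl5.
Acsl4: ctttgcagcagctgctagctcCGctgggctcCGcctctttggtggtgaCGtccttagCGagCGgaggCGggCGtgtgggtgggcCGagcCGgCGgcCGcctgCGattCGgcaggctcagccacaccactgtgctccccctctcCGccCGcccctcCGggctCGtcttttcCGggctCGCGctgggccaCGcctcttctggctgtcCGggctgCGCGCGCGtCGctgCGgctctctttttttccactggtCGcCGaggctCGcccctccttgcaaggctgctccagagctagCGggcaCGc
Acsl3: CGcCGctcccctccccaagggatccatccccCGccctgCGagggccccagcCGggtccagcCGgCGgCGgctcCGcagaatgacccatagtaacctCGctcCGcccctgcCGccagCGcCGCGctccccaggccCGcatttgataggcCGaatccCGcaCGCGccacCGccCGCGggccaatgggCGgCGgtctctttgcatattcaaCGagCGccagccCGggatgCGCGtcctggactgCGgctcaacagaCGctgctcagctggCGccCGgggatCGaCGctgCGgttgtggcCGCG
Acsl1: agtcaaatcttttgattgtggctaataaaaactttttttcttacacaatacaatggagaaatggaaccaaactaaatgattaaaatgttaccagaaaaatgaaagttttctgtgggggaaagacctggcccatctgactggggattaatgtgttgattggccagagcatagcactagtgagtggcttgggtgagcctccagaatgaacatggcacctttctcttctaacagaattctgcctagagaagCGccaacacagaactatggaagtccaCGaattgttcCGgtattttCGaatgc
Acsl5: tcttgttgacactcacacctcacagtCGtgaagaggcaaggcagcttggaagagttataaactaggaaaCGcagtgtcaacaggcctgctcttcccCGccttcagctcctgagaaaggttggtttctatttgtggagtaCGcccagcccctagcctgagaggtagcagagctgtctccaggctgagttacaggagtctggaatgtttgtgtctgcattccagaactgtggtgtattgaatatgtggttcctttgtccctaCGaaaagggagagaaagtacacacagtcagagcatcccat

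The Acsl4 and Acsl3 windows held 33 and 39 CG pairs and were 70.7% and 72.7% G or C. The Acsl1 window held 4 CG pairs at 40.7% G or C and the Acsl5 window 5 at 49.7%, while the medians of all 33469 RefSeq windows were 7 pairs and 51.7%. The Acsl6 window, chr10:38951911-38952210 on the plus strand, held 3 pairs at 60.3%. Of the 2013 tested genes whose window has at least 30 CG pairs, 21.3% were called higher and 13.3% lower in S280D than in YFP cells. Of the 5151 with 10 to 29 pairs 16.2% were called higher and 16.2% lower, and of the 1301 with under 10 pairs 16.4% and 9.22%. The median log2 fold changes of these classes were 0.02, -0.08 and 0.08. Whether the kind of window bears on the calls of the Acsl genes was not tested. The receptor's element is a direct repeat of AGGTCA with 1 base between, and both AGGTCA and AGGTCANAGGTCA were searched on both strands. The first is contained in the second. Neither was found in the window of any Acsl gene, while 16.2% of all windows held AGGTCA and 0.0538% held the repeat. A missing match says only that these letters are not in these 300 bases.

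Acsl5 was by far the most abundant member per length of exon. In CPM per kilobase of exon, it had 171 and 176 in S280D cells, 161 and 178 in S280A cells, 160 and 160 in WT cells, and 166 and 146 in YFP cells. Its share of the summed level of the family was 75.0% and 78.0% in S280D cells, 82.5% and 84.3% in S280A cells, 77.6% and 79.4% in WT cells, and 84.6% and 80.3% in YFP cells. Acsl1, the usual cardiac member, lay at 14.5 to 18.5 per kilobase over all libraries. Acsl3 lay at 8.83 to 20.5 and Acsl4 at 4.81 to 18.0.

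The order Acsl5, Acsl1, Acsl3, Acsl4, Acsl6 held in 7 of 8 libraries, and in the other, S280D replicate 1, Acsl3 at 20.5 stood above Acsl1 at 18.5 per kilobase. In S280D cells the 3 middle members lay close, with Acsl3 at 19.4 ± 1.48, Acsl1 at 18.5 ± 0.0378 and Acsl4 at 15.4 ± 3.78 per kilobase (SD, n = 2). In S280A cells Acsl1 was at 15.8 ± 1.86, Acsl3 at 12.3 ± 1.70 and Acsl4 at 5.51 ± 0.978 per kilobase. In WT cells Acsl1 was at 17.5 ± 1.12, Acsl3 at 13.9 ± 1.38 and Acsl4 at 12.6 ± 0.841 per kilobase, and in YFP cells they were at 15.8 ± 0.663, 11.4 ± 3.60 and 5.93 ± 1.17 per kilobase. The ranges of the libraries of neighbouring members overlapped for Acsl3 and Acsl4 in WT cells. Between Acsl1 and Acsl3 they overlapped in S280D cells only.

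Acsl6 was close to silent. It had 9 exon reads in all 8 libraries together and 0 to 3 in any of them, and did not pass the filter on low counts, so no comparison of Acsl6 was made on exon reads. A library with no exon read allows up to 3 reads, which is 0.137 to 0.242 CPM in the 4 libraries with none, for counting error only. Its introns held 1 to 17 reads per library and were tested, and Acsl6 was not called in any of the 6 comparisons on them, with 17 and 16 reads in S280D cells, 1 and 6 in S280A cells, 13 and 16 in WT cells, and 13 and 13 in YFP cells.

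**Figure D1:**
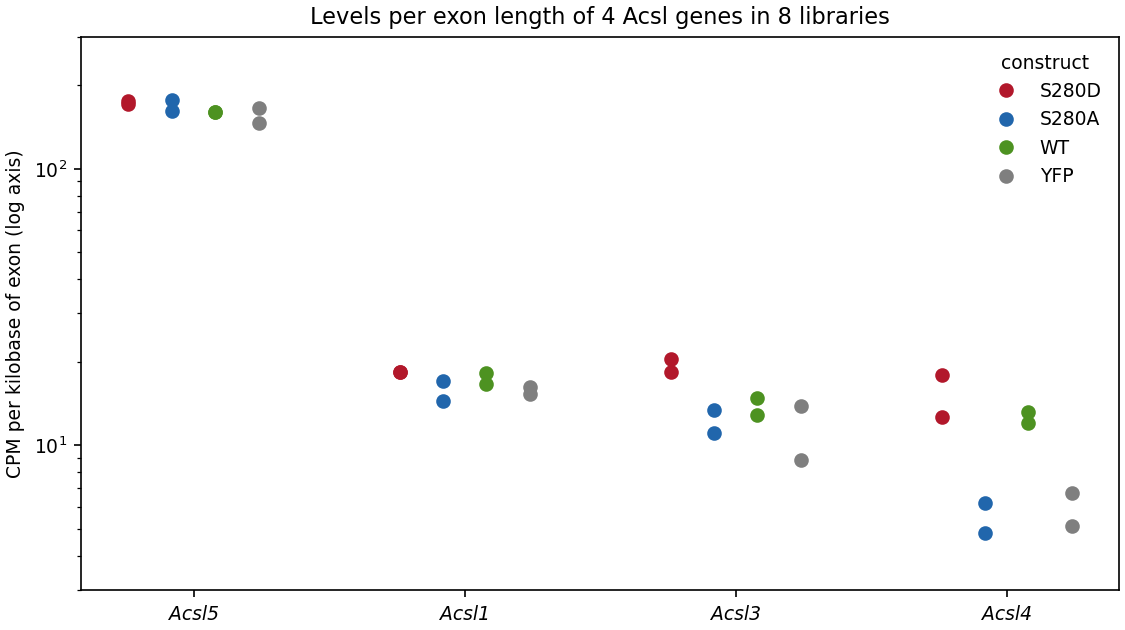
CPM of exon reads per kilobase of exon (log axis) of Acsl5, Acsl1, Acsl3 and Acsl4 in each library, 1 point a library, with constructs S280D, S280A, WT and YFP from left to right. Acsl5 lies at 146 to 178 in all libraries, and Acsl4 has the widest spread of the family, at 4.81 to 18.0.

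Acsl4, the synthetase of polyunsaturated fatty acids, carried the clearest difference between constructs. Its exon reads stood at 89.3 and 62.8 CPM in S280D cells, 30.7 and 23.8 CPM in S280A cells, 65.4 and 59.5 CPM in WT cells, and 25.2 and 33.5 CPM in YFP cells. All 4 libraries of S280D and WT cells lay above all 4 libraries of S280A and YFP cells, with a gap between 59.5 and 33.5 CPM. A profile close to this was common, since 1109 of 10280 named genes had a Pearson r above 0.95 with Acsl4 in log2 CPM. The share of all features whose libraries separate between constructs is not reported here, for Acsl4 or for any gene below. S280A cells overlapped YFP cells, and the S280D libraries lay on both sides of WT replicate 1. In bulk RNA such a difference cannot be told apart from a different number of cells that express the gene.

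Acsl4 was higher in S280D than in YFP cells by 1.37 ± 0.20 on the log2 scale (2.59-fold, edgeR adjusted p = 0.00123) and higher in WT than in YFP cells by 1.09 ± 0.20 (2.13-fold, adjusted p = 0.00656). It was higher in S280D than in S280A cells by 1.48 ± 0.20 (2.79-fold, adjusted p = 0.00166). In S280A against WT cells it fell by 1.19 on the log2 scale, with SE 0.20 and edgeR adjusted p = 0.00772. The other pairs did not pass. In S280A against YFP cells the log2 fold change was -0.11 with a 95% interval of -0.55 to 0.34 (adjusted p = 0.861), and in S280D against WT cells it was 0.29 with an interval of -0.13 to 0.70 (adjusted p = 0.948). The S280A and WT comparisons with YFP share the YFP libraries.

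The S280D calls of Acsl4 were kept when any single library was left out, with edgeR adjusted p up to 0.0137 against YFP and up to 0.0283 against S280A cells. The calls that involve WT cells were less steady. Without WT replicate 1 the adjusted p of WT against YFP was 0.0714 and that of S280A against WT 0.0789, and without S280A replicate 2 S280A against WT had 0.0983. Both lost their call against a minimum change of 1.5-fold, with adjusted p of 0.114 and 0.0926.

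Sequencing lane was unevenly spread over the constructs. Both WT libraries came from lane 2 and both YFP libraries from lane 1, so for this pair lane and construct cannot be told apart directly. Within lane 1 Acsl4 had 89.3 CPM in S280D cells, 23.8 CPM in S280A cells, and 25.2 and 33.5 CPM in YFP cells. Within lane 2 it had 62.8 CPM in S280D cells, 30.7 CPM in S280A cells, and 65.4 and 59.5 CPM in WT cells. Acsl4 was thus higher in S280D than in S280A cells within either lane. With lane as a covariate the S280D calls held, at 1.42 against YFP (edgeR adjusted p = 0.00499) and 1.47 against S280A cells (adjusted p = 0.0044), as did S280A against WT at -1.24 (adjusted p = 0.0285). WT against YFP was 1.19 ± 0.30 with adjusted p = 0.117.

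**Figure D2:**
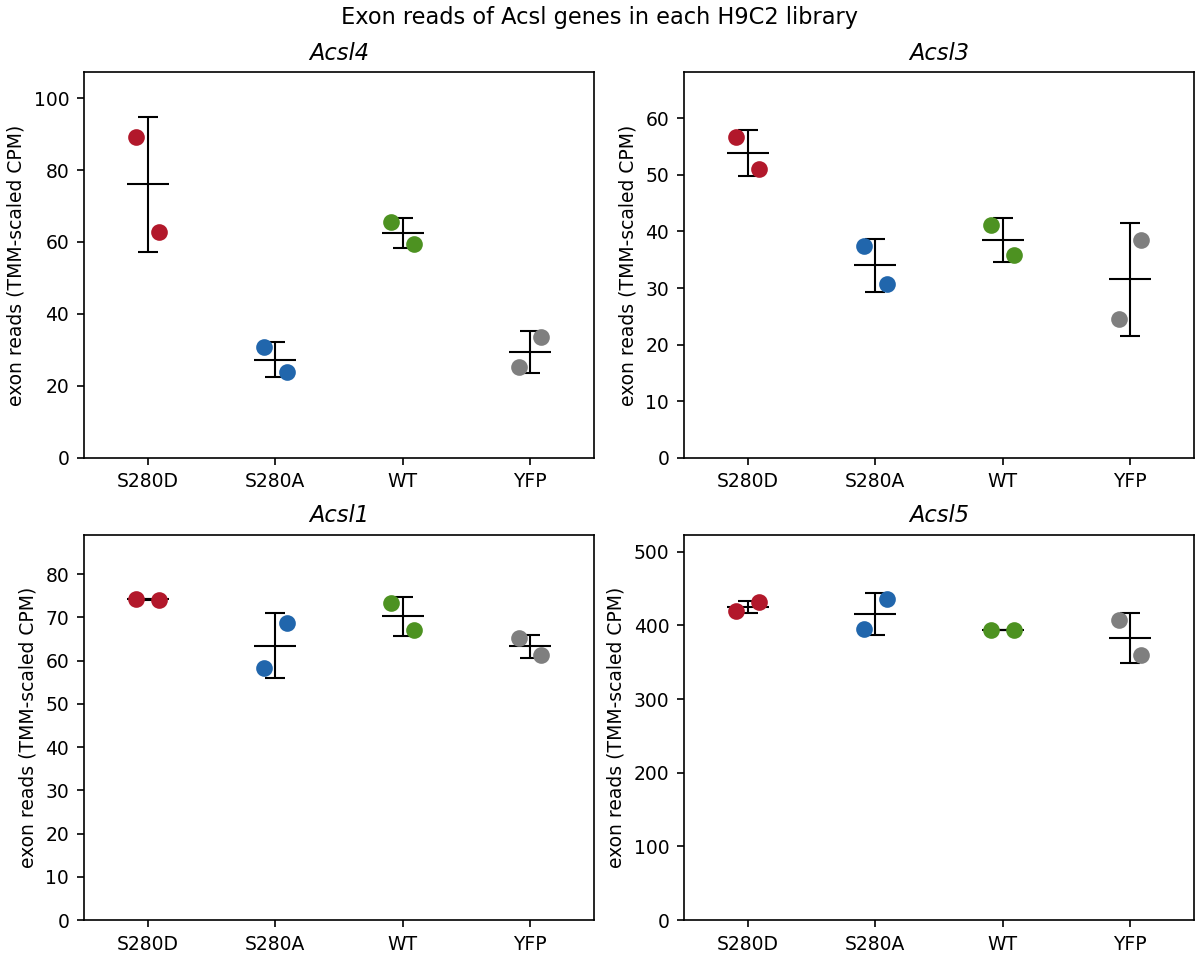
Exon reads in TMM-scaled CPM of Acsl4, Acsl3, Acsl1 and Acsl5 for S280D, S280A, WT and YFP cells, 1 point a library, with the mean and SD of 2 libraries in black. The S280D and WT points of Acsl4 lie at 59.5 CPM or more and its S280A and YFP points at 33.5 CPM or less, while the points of Acsl1 lie at 58.2 to 74.3 CPM and those of Acsl5 at 359 to 436 CPM.

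Acsl3, the synthetase of lipid droplets, was highest in S280D cells. It had 56.8 and 50.9 CPM in S280D cells, 37.4 and 30.7 CPM in S280A cells, 41.2 and 35.8 CPM in WT cells, and 24.5 and 38.6 CPM in YFP cells. Both S280D libraries lay above the other 6 libraries, which overlapped one another, and the share of all features that do so was not counted. Acsl3 was higher in S280D than in YFP cells by 0.77 ± 0.20 on the log2 scale (1.71-fold, edgeR adjusted p = 0.0143) and higher in S280D than in S280A cells by 0.66 ± 0.20 (1.58-fold, adjusted p = 0.0220). Against WT cells the S280D difference was 0.49 ± 0.19 with a 95% interval of 0.06 to 0.91, an unadjusted p of 0.0291 and an adjusted p of 0.948 from edgeR. The other 3 pairs were not called, at 0.11 in S280A against YFP, -0.18 in S280A against WT and 0.29 in WT against YFP cells.

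The Acsl3 calls rested on few libraries. S280D against YFP had an edgeR adjusted p of 0.0944 without YFP replicate 1 and 0.0883 without S280D replicate 1, and 0.0576 with lane as a covariate. S280D against S280A had 0.162 without S280A replicate 2 and 0.117 without S280D replicate 1, and 0.148 on reads over exon junctions alone. Neither call held against a minimum change of 1.5-fold, at 0.447 and 0.601. Without YFP replicate 2 the WT against YFP difference was 0.65 and passed with an adjusted p of 0.0342. Within lane 1 Acsl3 had 56.8 CPM in S280D cells, 30.7 CPM in S280A cells, and 24.5 and 38.6 CPM in YFP cells, and within lane 2 it had 50.9 CPM in S280D cells, 37.4 CPM in S280A cells, and 41.2 and 35.8 CPM in WT cells.

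On exon reads Acsl1, the member that PPARα is known to induce in liver, was not called in any comparison. It had 74.3 and 74.1 CPM in S280D cells, 58.2 and 68.8 CPM in S280A cells, 73.4 and 67.0 CPM in WT cells, and 65.2 and 61.4 CPM in YFP cells. Both S280D libraries were above both YFP libraries, by 0.23 on the log2 scale with a 95% interval of -0.04 to 0.50 and an edgeR adjusted p of 0.176. S280D against S280A gave 0.23 with an interval of -0.05 to 0.50, and the other 4 log2 fold changes lay between -0.15 and 0.15. The widest bounds over its comparisons were -0.42 and 0.50. With an offset for exon length all 6 lay between -0.05 and 0.07.

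Acsl5, the most abundant member, also did not pass in any comparison. It had 420 and 431 CPM in S280D cells, 396 and 436 CPM in S280A cells, 393 and 393 CPM in WT cells, and 407 and 359 CPM in YFP cells. Its 6 log2 fold changes lay between 0.03 and 0.15, the largest in S280D against YFP cells with a 95% interval of -0.10 to 0.40 and an edgeR adjusted p of 0.327. The widest bounds over its comparisons were -0.21 and 0.40. With an offset for exon length S280D against S280A was -0.08 and WT against YFP -0.05.

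Counted over the family, 2 of the 4 tested members were called in S280D against YFP cells, both higher, where 30.7% of the 12407 tested features were called and 17.1% were called higher. S280D against S280A cells also had 2 called, both higher, beside 39.3% of features called and 21.3% called higher. WT against YFP had 1 called, higher, beside 19.6% of features called and 12.2% called higher, and S280A against WT had 1 called, lower, beside 26% called and 15.9% called lower. With so many features called in these comparisons, the counts of the family are not a result about the family. In S280A against YFP and in S280D against WT none of the 4 members was called by edgeR or by DESeq2. By edgeR 0.0403% of features were called in each, and DESeq2 called more, as given in the closing section. At an unadjusted p under 0.05 the edgeR counts were 0 for S280A against YFP and 1, Acsl3, for S280D against WT. The median log2 fold change of the 4 tested members was 0.50 in S280D against YFP, 0.44 in S280D against S280A, 0.22 in WT against YFP and -0.16 in S280A against WT cells. Over all tested features the corresponding medians were -0.02, -0.01, -0.01 and 0.01.

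**Figure D3:**
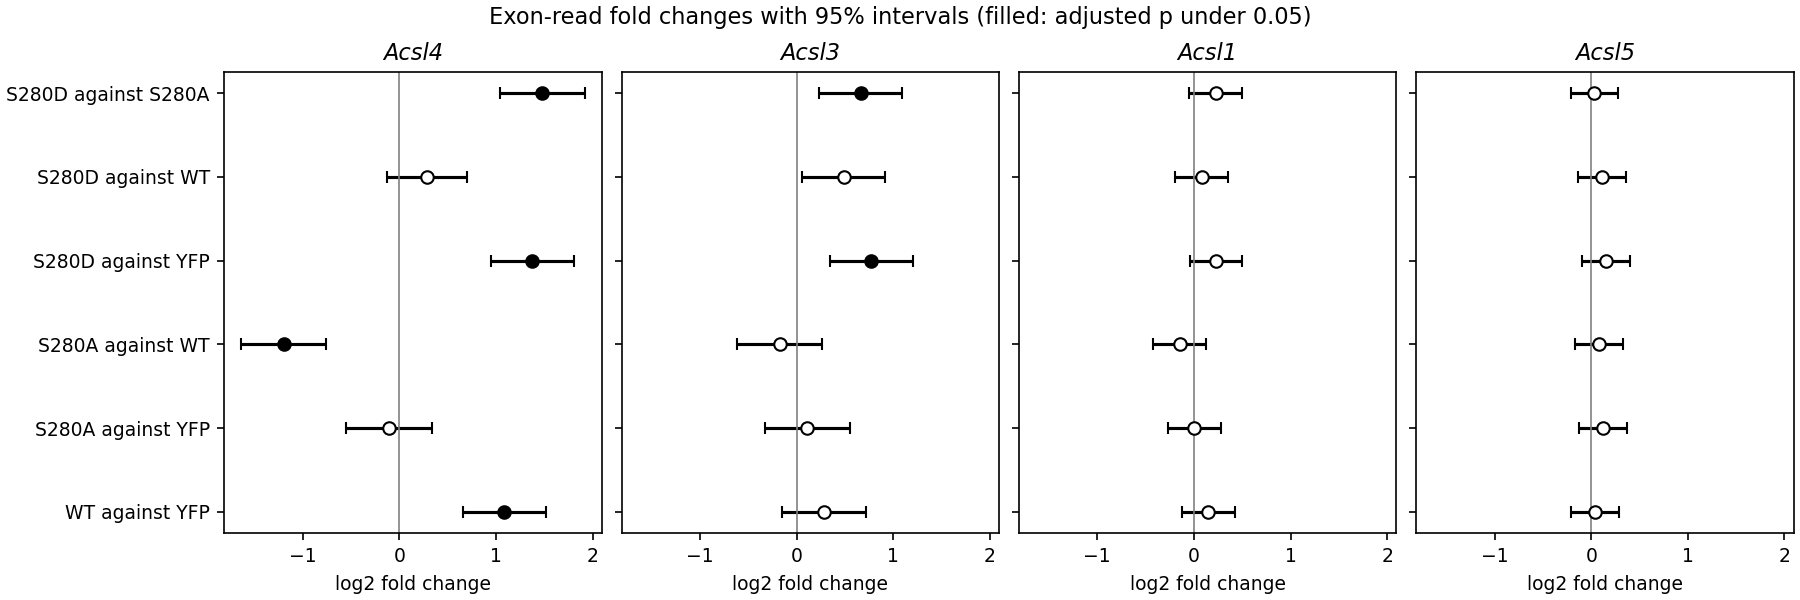
Log2 fold changes of exon reads (x axis) with 95% intervals for the 6 comparisons of constructs (y axis), 1 panel each for Acsl4, Acsl3, Acsl1 and Acsl5. Filled points have an edgeR adjusted p under 0.05 and are 4 for Acsl4, 2 for Acsl3 and 0 for Acsl1 and Acsl5.

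The authors' deposited table called the same 6 differences of the family and no others. For Acsl4 the authors' deposited table gave signed fold changes of 2.63 in S280D against YFP (FDR p = 1.8e-08), 2.82 in S280D against S280A (FDR p = 2.65e-09), -2.27 in S280A against WT (FDR p = 1.46e-05) and 2.12 in WT against YFP (FDR p = 5.73e-05). For Acsl3 the authors' deposited table gave 1.73 in S280D against YFP (FDR p = 0.00389) and 1.60 in S280D against S280A (FDR p = 0.0163). Their tests called 3087, 4070, 2661 and 2136 features in S280D against YFP, S280D against S280A, S280A against WT and WT against YFP, per the authors' deposited table. These were 9.57%, 12.6%, 8.25% and 6.62% of all 32258 features, while the edgeR shares above are of the 12407 features that passed the filter.

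Longer genes shifted with the same groups of libraries as Acsl4. Across the 12407 tested features, the Spearman correlation between exon length and the level relative to the mean of the 8 libraries was 0.238 and 0.211 in S280D cells, -0.140 and -0.232 in S280A cells, 0.129 and 0.158 in WT cells, and -0.247 and -0.0648 in YFP cells. Acsl4, with 4951 bases of exon, is longer than 88.6% of the tested features, while the median feature has 2314 bases. Among tested features of at least 4000 bases, 29.8% were called higher in S280D than in YFP cells and 37.4% higher in S280D than in S280A cells. An offset for exon length lowered the log2 fold changes of Acsl4 to 1.08 in S280D against YFP, 1.15 in S280D against S280A, -0.94 in S280A against WT and 0.88 in WT against YFP cells. All of these stayed below an edgeR adjusted p of 0.05, the largest being 0.00485. Acsl3, with 2772 bases, had 0.65 in S280D against YFP (adjusted p = 0.0129) and 0.51 in S280D against S280A cells (adjusted p = 0.031) with the same offset.

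The summed levels of the muscle and fibroblast lists, carried by a few abundant genes, also differed between constructs. The 14 muscle markers summed to 8161 to 9238 CPM in S280D cells, 11756 to 15585 CPM in S280A cells, 8640 to 9232 CPM in WT cells and 11209 to 12930 CPM in YFP cells. The 7 fibroblast markers summed to 44010 to 47729 CPM in S280D cells, 54939 to 64073 CPM in S280A cells, 38591 to 44626 CPM in WT cells and 56834 to 65546 CPM in YFP cells. Both sums were lower in all S280D and WT libraries than in all S280A and YFP libraries. Acta2, smooth muscle actin, made up most of the muscle sum, at 6829 and 7903 CPM in S280D cells, 10435 and 14127 CPM in S280A cells, 7493 and 7984 CPM in WT cells, and 11477 and 9550 CPM in YFP cells, and the collagen genes Col1a1 and Col1a2 made up most of the fibroblast sum. The lists as a whole did not follow their sums. In S280D against S280A cells the median log2 fold change was 0.03 over the 9 tested muscle markers, of which 1 was called higher and 3 lower, and 0.06 over the 5 tested fibroblast markers, of which 1 was called higher and 1 lower. Mef2c, a transcription factor of muscle, was ordered as Acsl4 was, with 68.7 and 57.0 CPM in S280D cells, 30.1 and 19.7 CPM in S280A cells, 56.4 and 51.8 CPM in WT cells, and 32.8 and 39.5 CPM in YFP cells. It was higher in S280D than in S280A cells by 1.33 ± 0.19 on the log2 scale (edgeR adjusted p = 0.00174), and Dcn, a proteoglycan of connective tissue, by 0.48 ± 0.16 (adjusted p = 0.0316), while Acta2 was at -0.74 ± 0.16 (adjusted p = 0.00659) and Col1a1 at -0.47 ± 0.15 (adjusted p = 0.0314). The part of these differences in that of Acsl4 was not tested.

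Reads within introns, which come in part from transcripts not yet spliced, gave a second readout of the same libraries. Acsl4 had 60.7 and 38.0 CPM of intron reads in S280D cells, 33.4 and 25.2 CPM in S280A cells, 39.1 and 35.8 CPM in WT cells, and 21.4 and 20.9 CPM in YFP cells. The YFP libraries were the lowest, and the S280A libraries lay between them and all others. On intron reads Acsl4 was higher in S280D than in YFP cells by 1.23 ± 0.27 on the log2 scale (edgeR adjusted p = 0.0225), the only call of the 5 members on introns, beside 5.35% of 12988 features called there. In the other comparisons 4.54% of features were called on introns for S280D against S280A, 2.02% for WT against YFP, 0.0154% for S280A against YFP, 0.0077% for S280A against WT and 0% for S280D against WT. That call was lost with lane as a covariate (adjusted p = 0.0605), without YFP replicate 1 (0.132), without YFP replicate 2 (0.0530) and without S280D replicate 1 (0.257).

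The other intron differences of Acsl4 had a wider SE than its exon differences, and not all were smaller. WT against YFP gave 0.82 ± 0.28 on intron reads (edgeR adjusted p = 0.141), S280D against S280A 0.75 ± 0.27 (adjusted p = 0.113) and S280A against WT -0.35 ± 0.27 (adjusted p = 0.587). S280A against YFP gave 0.48 ± 0.29 on introns (adjusted p = 0.626) and -0.11 on exons. S280D against WT gave 0.41 ± 0.25 on introns (adjusted p = 0.9996) and 0.29 on exons. The difference between exon and intron change was itself tested. It was 0.75 ± 0.27 in S280D against S280A (edgeR adjusted p = 0.103) and -0.83 ± 0.27 in S280A against WT cells (adjusted p = 0.147), where 5.84% and 1.03% of 9892 features were called, and Acsl4 was not. Intron reads of Acsl4 were 10.9% of its exon and intron reads in S280D cells and 13.6% in S280A cells, beside 9.28% in WT cells and 9.05% in YFP cells.

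Acsl5 showed a different pattern on introns than on exons. Its intron reads stood at 145 and 166 CPM in S280D cells, 129 and 185 CPM in S280A cells, 149 and 153 CPM in WT cells, and 216 and 221 CPM in YFP cells. All 6 libraries with a receptor lay below both YFP libraries, and the share of all features that do so was not counted. None of these differences passed. The log2 fold changes on intron reads were -0.49 ± 0.22 in S280D (edgeR adjusted p = 0.188), -0.48 ± 0.22 in S280A (adjusted p = 0.507) and -0.54 ± 0.22 in WT cells (adjusted p = 0.222), each against YFP cells. Intron reads were 6.28% and 6.76% of the exon and intron reads of Acsl5 in S280D cells and 4.85% and 5.51% in S280A cells. They were 6.08% and 6.20% in WT cells and 6.13% and 8.54% in YFP cells. By this share YFP replicate 1 lay within the range of the receptor libraries.

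The exon change of Acsl5 less its intron change was 0.67 ± 0.20 in S280D against YFP cells with an edgeR adjusted p of 0.0555, beside 4.62% of features called. It was 0.62 ± 0.20 in S280A (adjusted p = 0.225) and 0.57 ± 0.20 in WT cells (adjusted p = 0.167) against YFP cells, beside 0.0101% and 1.96% called. With at least 10 reads of each kind required, the adjusted p in S280D against YFP was 0.0408. Over the whole library, intron reads were 14.4% and 15.1% of exon and intron reads in S280D cells, 14.2% and 15.8% in S280A cells, 14.4% and 14.5% in WT cells, and 10.99% and 11.9% in YFP cells. The 6 libraries with the higher intron share were those with lower intron CPM of Acsl5, and the part of that share in the result was not tested.

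Acsl1 and Acsl3 had few intron reads. Acsl1 had 24.6 and 20.1 CPM of intron reads in S280D cells, 23.4 and 19.4 CPM in S280A cells, 22.2 and 20.7 CPM in WT cells, and 17.2 and 17.2 CPM in YFP cells. No comparison of Acsl1 was called, the largest being 0.39 ± 0.26 in S280D against YFP cells (edgeR adjusted p = 0.391). Acsl3 rested on 8 to 54 intron reads per library, at 6.72 and 7.26 CPM in S280D cells, 3.61 and 4.69 CPM in S280A cells, 5.26 and 7.37 CPM in WT cells, and 5.24 and 5.06 CPM in YFP cells. At this depth an intron difference of the size seen on its exons was not detectable, with an SE of 0.45 in S280D against YFP cells.

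**Figure D4:**
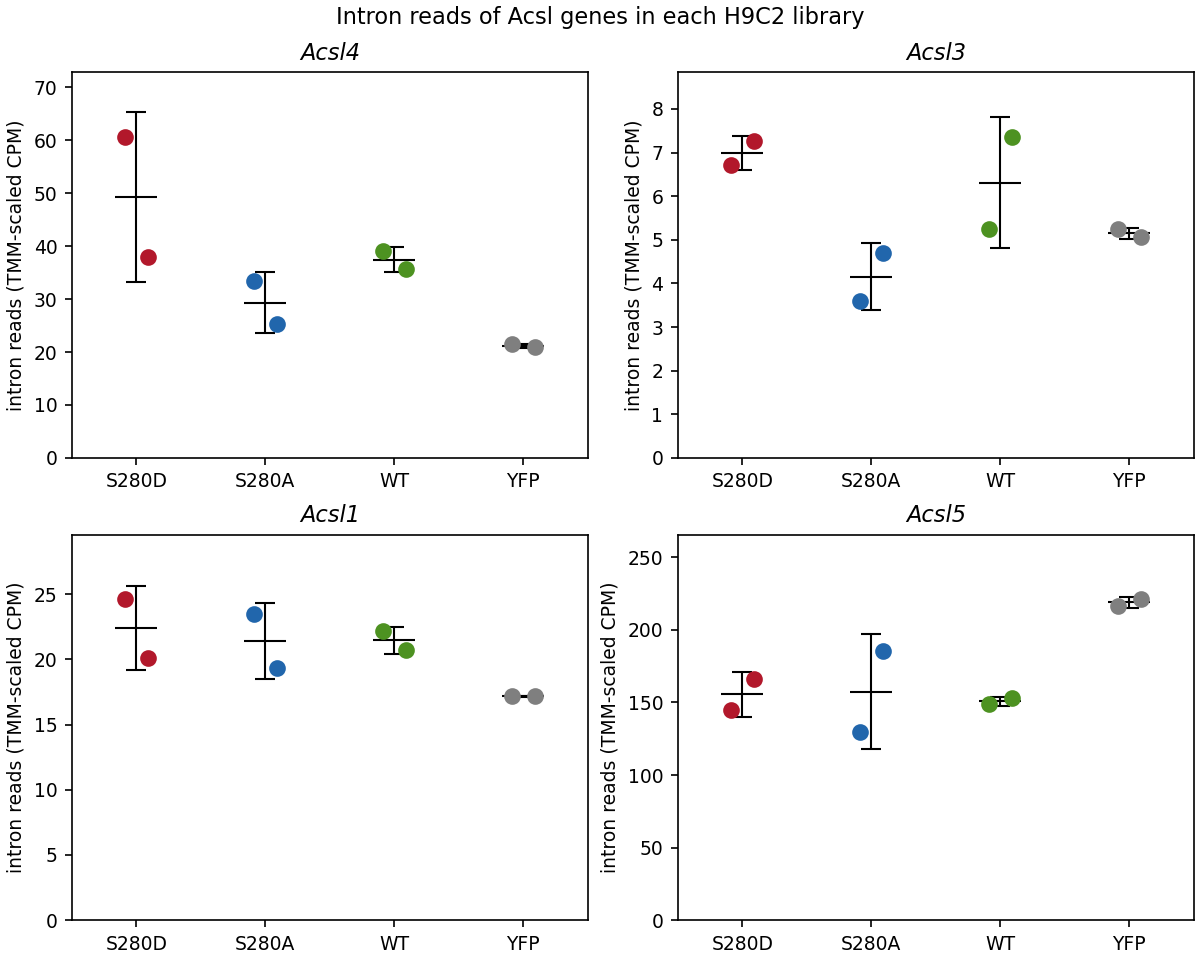
Intron reads in TMM-scaled CPM of Acsl4, Acsl3, Acsl1 and Acsl5 for S280D, S280A, WT and YFP cells, 1 point a library, with the mean and SD of 2 libraries in black. For Acsl5 the YFP points at 216 and 221 CPM lie above all 6 points of the receptor constructs, and for Acsl4 the YFP points at 21.4 and 20.9 CPM lie below them.

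The genes whose levels followed each member most closely were found over the 8 libraries among 10280 named genes, as Pearson correlations of log2 CPM. For Acsl4 these were Mpp5 (r = 0.998), Sept7 (r = 0.998) and Slk (r = 0.997), and 1109 genes had r above 0.95. Slk, for example, had 198 and 148 CPM in S280D cells, 75.3 and 57.7 CPM in S280A cells, 157 and 142 CPM in WT cells, and 65.4 and 87.4 CPM in YFP cells. For Acsl3 they included Tnfsf18 (r = 0.985) and Eml1 (r = 0.977), with 16 genes above 0.95. Eml1 had 104 and 97.8 CPM in S280D cells, 76.6 and 65.2 CPM in S280A cells, 80.3 and 77.4 CPM in WT cells, and 61.4 and 74.5 CPM in YFP cells.

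Acsl1 and Acsl5 had few close companions. For Acsl1 these were Nhlrc2 (r = 0.960), Rpp40 (r = 0.944) and Zhx2 (r = 0.943), with 1 gene above 0.95. For Acsl5 they were Pdzd11 (r = 0.926), Tm2d3 (r = 0.922) and Ormdl1 (r = 0.915), with 0 genes above 0.95. All points share the libraries, their depth and their lane, so these values are descriptions of 8 libraries.

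Among the other enzymes that make acyl-CoA, Slc27a4, Acsf2 and Aacs fell in S280D against S280A cells. Of 6 fatty acid transport proteins, which also activate fatty acids, 3 passed the filter. Slc27a4 had 25.9 and 27.6 CPM in S280D cells, 35.6 and 45.9 CPM in S280A cells, 27.5 and 30.2 CPM in WT cells, and 37.9 and 38.5 CPM in YFP cells. Its log2 fold change was -0.61 ± 0.15 in S280D against S280A (edgeR adjusted p = 0.00985), -0.52 ± 0.15 in S280D against YFP (adjusted p = 0.0234) and 0.50 ± 0.15 in S280A against WT cells (adjusted p = 0.0333). Slc27a1 and Slc27a3 did not pass in any comparison.

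Of 13 other acyl-CoA synthetases 12 are in the table and 7 passed the filter. Acsf2, a mitochondrial medium-chain synthetase, had 25.8 and 25.6 CPM in S280D cells, 32.2 and 43.9 CPM in S280A cells, 26.99 and 25.98 CPM in WT cells, and 36.8 and 37.4 CPM in YFP cells. Its log2 fold change was -0.56 ± 0.16 in S280D against S280A (edgeR adjusted p = 0.0163), -0.53 ± 0.15 in S280D against YFP (adjusted p = 0.0255), 0.52 ± 0.16 in S280A against WT (adjusted p = 0.0340) and -0.49 ± 0.16 in WT against YFP cells (adjusted p = 0.0487). Aacs, which activates acetoacetate, was at -0.40 ± 0.13 in S280D against S280A (adjusted p = 0.0277) and 0.41 ± 0.13 in S280A against WT cells (adjusted p = 0.0368). In S280D against S280A cells 1 of the 3 tested transport proteins and 2 of the 7 tested synthetases were called lower, beside 18% of all features. The list medians there were -0.58 for the transport proteins and -0.40 for the other synthetases, beside -0.01 over all tested features.

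Thioesterases cut acyl-CoA back to free fatty acid. Of 14 listed genes 7 were tested, and in S280D against S280A cells 2 were called higher and 2 lower, beside 21.3% of all features called higher and 18% called lower. Acot9, a mitochondrial thioesterase, had 38.6 and 33.2 CPM in S280D cells, 21.1 and 16.3 CPM in S280A cells, 38.5 and 35.0 CPM in WT cells, and 18.6 and 28.0 CPM in YFP cells. All its S280D and WT libraries thus lay above its S280A and YFP libraries, as for Acsl4, with the share of such features not counted. It was higher in S280D than in S280A cells by 0.94 ± 0.20 on the log2 scale (edgeR adjusted p = 0.00596), in S280D than in YFP cells by 0.62 ± 0.20 (adjusted p = 0.0357) and in WT than in YFP cells by 0.66 ± 0.20 (adjusted p = 0.0413), and its log2 fold change in S280A against WT cells was -0.97 ± 0.21 (adjusted p = 0.0109).

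Acot2, another mitochondrial thioesterase and a PPARα target in rodents, was highest in S280D cells, as Acsl3 was. It had 68.8 and 72.5 CPM in S280D cells, 47.0 and 47.8 CPM in S280A cells, 52.7 and 56.5 CPM in WT cells, and 39.5 and 46.8 CPM in YFP cells. Its log2 fold change was 0.71 ± 0.13 in S280D against YFP (edgeR adjusted p = 0.00311) and 0.57 ± 0.13 in S280D against S280A cells (adjusted p = 0.00621). Acot8, a peroxisomal thioesterase, went the other way, at -0.59 ± 0.17 in S280D against S280A (adjusted p = 0.0195) and 0.59 ± 0.17 in S280A against WT cells (adjusted p = 0.0311).

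Acyl-CoA binding proteins bind the product. Of 6 listed genes 5 were tested, and Dbi, the main carrier, did not pass in any comparison. In S280D against S280A cells Acbd5 was called at 2.12 ± 0.67 (edgeR adjusted p = 0.0275), on 73 and 25 exon reads in S280D cells against 8 and 1 in S280A cells. In the same comparison Acbd3 rose by 0.31 ± 0.11 (adjusted p = 0.0459) and Acbd6 was at -0.44 ± 0.16 (adjusted p = 0.0422). No member of this list was called in the other 5 comparisons, beside the shares of all features given above.

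The first enzymes to use long-chain acyl-CoA include the carnitine palmitoyltransferases, which pass it to mitochondria, and the acyltransferases of glycerolipid synthesis. Of 23 listed genes 18 were tested. In S280D against YFP cells 2 rose and 2 fell, beside 17.1% of all features called higher and 13.7% called lower there. In S280D against S280A cells 1 rose and 4 fell, beside 21.3% called higher and 18% called lower. Cpt1b, the muscle form of the carnitine enzyme, had 9.36 and 10.3 CPM in S280D cells, 5.97 and 5.07 CPM in S280A cells, 7.45 and 8.70 CPM in WT cells, and 4.22 and 5.06 CPM in YFP cells. Its log2 fold change was 1.08 ± 0.21 in S280D against YFP (edgeR adjusted p = 0.00427), 0.83 ± 0.21 in S280D against S280A (adjusted p = 0.0110) and 0.79 ± 0.21 in WT against YFP cells (adjusted p = 0.0258). Cpt1a, the liver form, was higher in S280D than in YFP cells by 0.84 ± 0.19 (adjusted p = 0.00988).

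Agpat1, which adds the second acyl chain in phospholipid and triglyceride synthesis, went against Acsl4. It had 26.9 and 31.6 CPM in S280D cells, 45.4 and 49.8 CPM in S280A cells, 18.5 and 20.9 CPM in WT cells, and 42.3 and 47.4 CPM in YFP cells. All S280D and WT libraries lay below all S280A and YFP libraries, again with the share of such features not counted. Its log2 fold change was -0.70 ± 0.14 in S280D against S280A (edgeR adjusted p = 0.00444), -0.62 ± 0.14 in S280D against YFP (adjusted p = 0.00901), 1.27 ± 0.15 in S280A against WT (adjusted p = 0.00333) and -1.19 ± 0.15 in WT against YFP cells (adjusted p = 0.0023). Elovl1, a fatty acid elongase, was at -0.45 ± 0.12 in S280D against S280A cells (adjusted p = 0.0157).

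**Figure D5:**
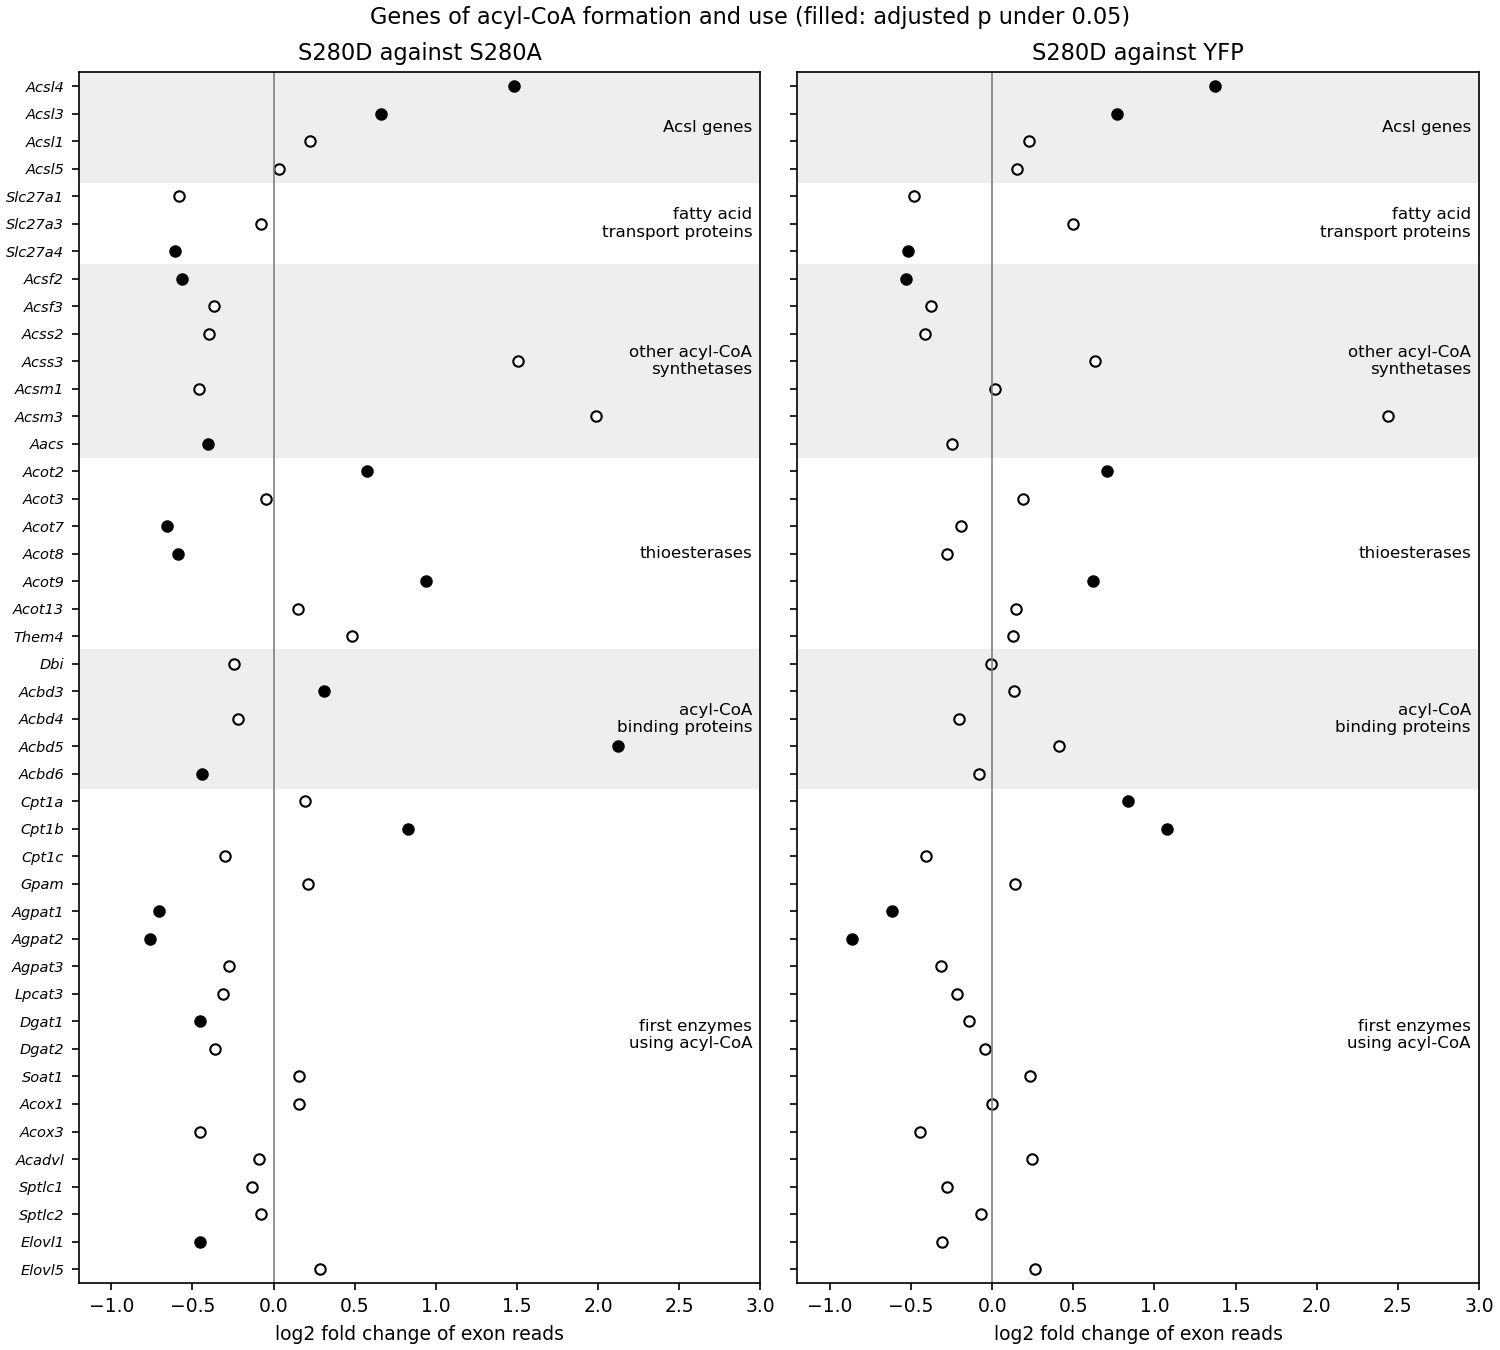
Log2 fold changes of exon reads (x axis) of the tested Acsl genes and of 5 lists of genes that make, cut, bind or use acyl-CoA (y axis, 1 gene a row), in S280D against S280A cells on the left and S280D against YFP cells on the right. Filled points have an edgeR adjusted p under 0.05, and Acsl4 at 1.48 and 1.37 and Acsl3 at 0.66 and 0.77 lie to the right of zero while Slc27a4 at -0.61 and -0.52 lies to the left.

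Known direct PPAR targets were also measured, since Acsl1 and several of the genes above belong among them. Of 20 listed genes 14 were tested, and 6 rose and 1 fell in S280D against YFP cells, beside 17.1% of all features called higher and 13.7% called lower. In WT against YFP cells 3 were called higher and 0 lower, beside 12.2% called higher, and in S280D against S280A cells 3 were called higher and 1 lower, beside 21.3% and 18%, so that the last count was near the background. Angptl4, a secreted lipase inhibitor and a sensitive PPAR target, had 18.98 and 18.26 CPM in S280D cells, 7.72 and 4.91 CPM in S280A cells, 7.60 and 9.65 CPM in WT cells, and 3.34 and 1.99 CPM in YFP cells. Its log2 fold change was 2.81 ± 0.28 in S280D against YFP (edgeR adjusted p = 0.000702), 1.55 ± 0.26 in S280D against S280A (adjusted p = 0.00232) and 1.70 ± 0.29 in WT against YFP cells (adjusted p = 0.00536). In S280A against YFP cells Angptl4 was at 1.26 ± 0.30 (edgeR adjusted p = 0.238). The WT libraries of Angptl4 thus lay nearer to the S280A than to the S280D libraries, whereas those of Acsl4 lay nearer to the S280D libraries. Whether the profile of Acsl4 over the constructs differs from that of Angptl4 was not tested. Other listed targets did not follow Angptl4. Ucp2 was higher in S280A than in WT cells by 0.68 ± 0.17 (edgeR adjusted p = 0.0162). It was the 1 listed target called there, beside 26% of all features. Slc25a20 was the 1 that fell in S280D against YFP cells, at -0.51 ± 0.13 (edgeR adjusted p = 0.0127).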

How the data were processed

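Poly(A) RNA of H9C2 cells was sequenced as strand-specific paired-end libraries, per the labels. The deposited table gives raw counts per gene, as exon, unique exon, junction and intron reads of each library, not normalized, per its headers as deposited. The genome build is Rnor_6.0, per the submitters' processing notes. No source used here names the aligner, the annotation or the counting's strand setting. The same table holds the authors' own pairwise tests as FDR-corrected p-values, per the file headers. Their effect sizes are the authors' signed fold changes, a score that runs below -1 for a decrease, per the file headers. Lanes are those named in the headers. WT replicate 2 carries the number 2 in its title and 3 in its description.

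The test of exon reads was that of edgeR 4.0.16 under R 4.3.3 (filterByExpr, TMM, quasi-likelihood test, all 8 libraries, 1 coefficient per group, 4 residual degrees of freedom, common dispersion 0.0176, a coefficient of variation of 0.133). Adjustment was over all 12407 features, two-sided, at 0.05. Intron reads were fitted apart (12988 features). Exon against intron change was tested as an interaction with library as a block (9892 features). The fits were tested on simulated data. Members and lists were chosen with earlier results of these data known. The genes named are the members, Ppara, the 3 most correlated genes per member (1 of them is not reported here), and up to 3 genes per list with the smallest adjusted p. Alternatives were RLE factors, other filters, DESeq2 1.42.0, a fit of the 4 libraries compared, a replicate block, lane, a 1.5-fold minimum, unique reads, an exon-length offset, thinning and leaving out each library. Junction reads were added after seeing the data. Sequences are RefSeq's, from the GRCr8 assembly. The 2 libraries of a group did not have the counts of a duplicate in any group, and pairs across groups were not checked. Reads were amplified by PCR and carry no molecular identifiers, so intervals and floors cover counting error only.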

Additional observations from a re-analysis of the deposited data

How the results depend on the processing

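The Acsl4 calls in S280D against YFP and in S280D against S280A cells held under every alternative run on exon reads. Of 480 alternative log2 fold changes on exon reads 446 kept direction and side of the threshold, 14 lost a call, 1 gained one and 19 crossed zero while uncalled, among them 4 of the 6 comparisons of Acsl1 and 2 of Acsl5 with an exon-length offset. On introns 406 of 437 held, with 4 lost, 1 gained and 26 crossing zero uncalled, and for exon against intron change 216 of 234, with 0 lost, 3 gained and 15 crossing zero. No called value changed sign.

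The number of Acsl genes called on exon reads in S280D against YFP cells (2) was 1 with lane as a covariate and 1 with a 1.5-fold minimum, in S280D against S280A (2) it was 1 with a 1.5-fold minimum and 1 on junction reads, in S280A against WT (1) it was 0 with a 1.5-fold minimum, and in WT against YFP (1) it was 0 with lane and 0 with a 1.5-fold minimum. Leaving out 1 library gave 1 to 2, 1 to 2, 0 to 1 and 0 to 2. On introns the count in S280D against YFP (1) was 0 with lane and 0 to 1 without 1 library, and in S280D against S280A (0) it was 1 with no filter on low counts. For exon against intron change in S280D against YFP (0) it was 1 with at least 10 reads of each kind, and 0 to 1 without 1 library.

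Over all features on exon reads, S280D against YFP (3815) gave 1654 with lane, 566 with a 1.5-fold minimum, 2059 on junction reads and 917 to 4152 without 1 library, the lowest being 917 without S280D replicate 1, 1565 without YFP replicate 1 and 2543 without S280D replicate 2. S280D against S280A (4873) gave 733 with a 1.5-fold minimum, 2447 on junction reads and 1254 to 5223 without 1 library, with 1254 without S280A replicate 2 and 1330 without S280D replicate 1. S280D against WT (5) gave 129 with no filter, 40 with DESeq2, 33 from the 4 libraries alone, 1 with lane, 2 with a 1.5-fold minimum, 2 on junction reads and 0 to 13 without 1 library. S280A against WT (3226) gave 993, 20 and 1445 with lane, the minimum and junction reads, and 6 to 3859 without 1 library, with 6 without S280A replicate 2, 7 without WT replicate 1 and 1309 without WT replicate 2. S280A against YFP (5) gave 278 with no filter, 100 with DESeq2, 38 from the 4 libraries alone, 2 with lane, 2 with the minimum, 8 with the length offset, 49 on junction reads and 2 to 131 without 1 library, with 131 without YFP replicate 1. WT against YFP (2437) gave 9 with lane, 135 with the minimum, 1315 on junction reads and 163 to 2917 without 1 library, with 163 without WT replicate 1, 768 without YFP replicate 1 and 950 without WT replicate 2. The cause of these shifts was not tested. Where a library is left out, its partner is assumed to vary like the other groups.

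The replicate numbers are no known pairing, since the deviations of same-numbered libraries correlated at -0.173 to 0.205 between groups. With the number as a replicate block, S280D against WT gave 3 features, and every call of an Acsl gene held. Acsl3 rests on 381 to 2348 exon reads per library and 8 to 54 intron reads, which limits its intron comparisons.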
